A study of Mus musculus with 41 samples.

Results

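The cells described here are stromal, fibroblast-like cells found among the immune cells of the mouse small intestine. They were chosen by their own counts, so the genes of that choice are no finding. A cell was taken when its UMIs (unique molecular identifiers, each standing for 1 captured RNA molecule) for Col1a1, Col1a2, Col3a1 and Dcn came to at least 5 and it held 0 UMIs of the T cell genes Cd3d, Cd3e and Trac and 0 of the B cell gene Cd79a. Col1a1, Col1a2 and Col3a1 encode fibrillar collagen chains, and Dcn encodes decorin, a small proteoglycan that binds collagen. The rule found 215 cells of 58067, or 0.370%. Of these, 85 came from the lamina propria (LP) and 130 from Peyer's patches (PP).

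Fibroblasts and related mesenchymal cells build the collagen scaffold of the gut wall, supply the epithelium with Wnt and BMP ligands and their antagonists, and secrete chemokines that place immune cells. In lymphoid organs such as Peyer's patches, the small lymphoid organs of the small intestine, specialised stromal cells secrete CCL19 and CCL21, ligands of CCR7 that draw T cells and dendritic cells, and CXCL13, the ligand of CXCR5 that draws B cells. CGRP (calcitonin gene-related peptide) is a neuropeptide made from Calca. Its receptor is the calcitonin receptor-like receptor, encoded by Calcrl, joined to RAMP1, while the same receptor joined to RAMP2 or RAMP3 responds to adrenomedullin.

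All libraries came from female BALB/cJ wild-type mice aged 10 weeks. Control mice were untreated, and food allergy mice had an inflammatory reaction provoked with ovalbumin. Peyer's patches gave 10 control and 9 allergy libraries with cells, and 1 more allergy library was not analysed here. Lamina propria gave 3 control and 3 allergy libraries labelled nonTB, plus 1 of each labelled IgDLow. The labels do not explain nonTB and IgDLow, nor the dates in the sample titles, which are numbered here from 1 to 7 in calendar order. They also do not say whether libraries came from separate mice, so the p-values measure only the spread between these samples, which may be technical. The series set out to profile intestinal immune cells, and the collagen-expressing cells are a small minority that came along with them.

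Libraries held 379 to 3891 cells, with library medians of 1829 to 3975 UMIs per cell. Across libraries, 2180 cell barcodes occurred more than once, but no barcode was shared by stromal cells of different libraries. The stromal cells had a median of 4097 UMIs and 1724 genes, against 3031 UMIs and 1180 genes in the 57852 other cells. In the lamina propria their median was 3794 UMIs, and in Peyer's patches it was 4325.

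The label was checked against markers that the rule did not use. Ptprc, which encodes the leukocyte antigen CD45, had a UMI in 17 of the 215 cells, against 55.4% of the other cells. A UMI of the endothelial genes Pecam1, Cdh5 or Kdr was seen in 5 cells, and Cdh5, Flt1 and Cldn5 were at 0. Of the whole endothelial list, however, 13 of 16 genes had a UMI, in 151 stromal cells, and the list summed to 473 CPM (counts per 1000000 UMIs) against 93.7 CPM in the other cells. Most of it came from Plvap, Ecscr and Eng, at 175, 148 and 78.2 CPM, and it was 174 to 257 CPM in the lamina propria control sums and 591 to 654 CPM in those of Peyer's patches. Of the enteric glia list, 4 of 7 genes had a UMI, in 64 cells, at 106 CPM against 5.87 CPM in the other cells. Cryab, a small heat shock protein, made up 90.3 CPM of this, while Sox10 was seen in 1 cell and Gfap in none. The epithelial list summed to 98.3 CPM against 1121 CPM in the other cells, and its keratin Krt8 was at 0. Leukocyte genes beyond Ptprc were seen too. The pan-leukocyte list had a UMI in 101 cells, at 398 CPM against 5184.5 CPM in the other cells. The myeloid list had a UMI in 209 cells, at 2734 against 3650 CPM. The B cell and innate lymphoid lists had a UMI in 125 and 87 cells, at 1005 and 252 CPM against 8575 and 854 CPM. How much of this was free RNA was not tested. Pdgfra, a receptor that marks many gut fibroblasts, had a UMI in 82 cells, and Pdgfrb, which fibroblasts share with pericytes, in 90. Rgs5, which is high in pericytes, had a UMI in 140 cells. Doublet calling marked 6 of the 215 cells. By these genes the cells were stromal, but not of 1 kind.

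The rule left little at its edge. The summed UMIs of the rule genes had a median of 44 and a maximum of 395, and 186 of the 215 cells reached 10. Just inside the threshold, 11 cells had a sum of 5, and just outside it 9 cells had a sum of 4. A further 18 cells reached the sum but were left out for a T or B cell UMI.

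Relative to all other cells, and leaving out the rule genes, the largest excess was that of Ccl21a, at 40648 CPM against 46.8. The UMI counts come from 3′ ends, 1 per molecule, so CPM are not divided by transcript length. Among the 25 genes with the largest log2 ratio were the matrix genes Lum, Bgn, Mfap4, Dpt, Fbln1, Col6a1, Col6a2, Mgp, Pcolce and Sparc. Sparc, a collagen-binding glycoprotein, had a UMI in 211 cells. Others were the chemokines Ccl19, Ccl11 and Cxcl12, the complement genes C3, C1s1 and Serping1, the Wnt antagonist Sfrp1 and the BMP antagonist Grem1. These ratios compare cells that the rule itself picked, so they are a description without a test.

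Clustering at a resolution of 1 split the 215 cells into 7 groups, and a resolution of 0.5 gave 4. The numbers and leading genes below were taken after the values were seen. Group 1 held 69 cells, all from Peyer's patches, 38 control and 31 allergy. It was led by Clu, Ccl19, Ccl7, Cpxm1 and Cxcl13, with Ccl21a at 94733 CPM. Of its cells, 14 had a Cxcl13 UMI, against 68 with Clu and 59 with Ccl19. Group 2 held 57 cells, 55 of them from the lamina propria, and was led by Mfap5, a microfibril protein. Cd34, Gsn, Htra3 and Adamdec1 were among its leading genes. So were the lymphocyte genes Ccl5 and Gzma, with UMIs in 4 and 1 of its cells. Group 3 held 27 cells, all from Peyer's patches, 24 of them control, and was led by Apold1, Rgs4, Ndufa4l2 and Cox4i2. Group 3 had the pericyte genes Rgs5 at 3610.0 CPM, Notch3 at 441 CPM and Kcnj8 at 451 CPM, while its Pdgfra was 0.

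Group 4, of 23 cells from both tissues, was led by Ereg, an EGF family growth factor. Group 5 held 19 cells, 17 of them from the lamina propria, and was led by the matrix metalloproteinase Mmp10, with Cxcl14 and Wnt4 among its leading genes. Group 6, of 14 cells, was led by the myeloid genes Lyz2, Cd74 and Fcer1g. It held 4 of the 6 called doublets and 4 of the 17 cells with Ptprc, while group 1 held 10 of those 17 and no called doublet. Group 7, of 6 Peyer's patch cells, was led by the smooth muscle genes Actc1, Cnn1 and Actg2, with Acta2 at 11850.4 CPM. Groups 3, 6 and 7, with 47 cells together, had leading genes that go against a plain fibroblast label. In group 6 these genes came from part of the cells, with Lyz2 in 4, Fcer1g in 7 and Cd74 in 12 of the 14. The rule genes Dcn and Col3a1 were seen in 13 and 14 cells of that group.

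**Figure D1:**
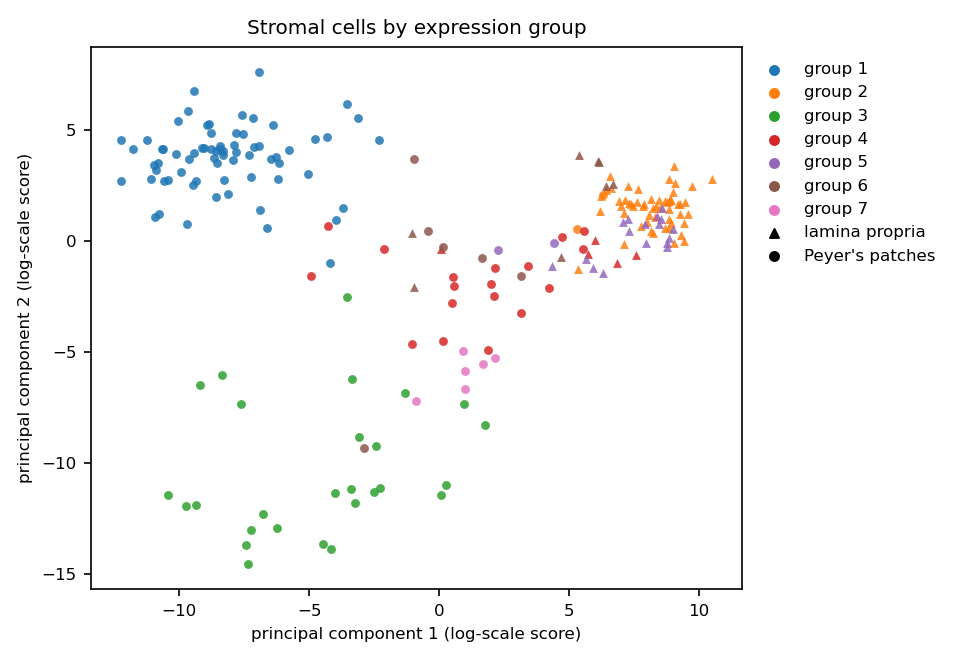
The 215 stromal cells on the first principal components of their log-scale expression (axes in score units), coloured by the 7 expression groups. Groups 1 and 3, which hold Peyer's patch cells only, lie apart from group 2, which is mostly lamina propria.

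The share of stromal cells in a library was lower in allergy than in control in the lamina propria, in every library measured, although this design could not reach a p below 0.167. In the nonTB control libraries they made up 0.656% (15 of 2285 cells), 0.676% (17 of 2516) and 1.26% (31 of 2466). In the nonTB allergy libraries they made up 0.0714% (2 of 2800), 0.106% (3 of 2822) and 0 of 2374, and a count of 0 there allows a share of up to 0.126%. The groups did not overlap. The mean share was 0.863% ± 0.341 (SD, n = 3) in control and 0.0592% ± 0.0542 (SD, n = 3) in allergy. An exact two-sided permutation test within title date gave p = 0.167, the smallest that its 12 arrangements allow. With each of the 6 libraries left out there were 6 arrangements, and p was again 0.167, the smallest that these allow. These runs could therefore not have made a call.

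The single IgDLow libraries had 17 of 2598 cells (0.654%, exact 95% binomial interval 0.382 to 1.05%) in control and 0 of 3409 in allergy. That 0 allows up to 0.0880% by a floor of 3 counts (exact 95% binomial upper limit 0.108%). Exact intervals and limits from a count of 0 cover counting error only. How many stromal cells a library holds can also depend on how the tissue was dissociated and sorted, which was not tested.

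In Peyer's patches the share varied more between title dates than between conditions. On date 5 the control libraries held 1.59% (40 of 2518) and 1.08% (25 of 2306), and the allergy libraries 0.552% (15 of 2715) and 0.600% (16 of 2665). Control was also higher on date 4, at 0.436% (11 of 2525) against 0.293% (6 of 2046). On date 3 the order was reversed, with 0 of 1125 in control and 0.180% (7 of 3891) in allergy. On date 1 the 3 control libraries held 3 or 4 cells each and the 2 allergy libraries none, and on date 2 none of the 6 libraries held any.

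Over all dates the mean was 0.346% ± 0.551 (SD, n = 10) in control and 0.181% ± 0.248 (SD, n = 9) in allergy. The difference was less than the spread between libraries (exact permutation within title date, two-sided, p = 0.156 over 768 arrangements). Without date 5 the difference shrank from -0.166 to -0.0313 percentage points (exact permutation p = 0.438).

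**Figure D2:**
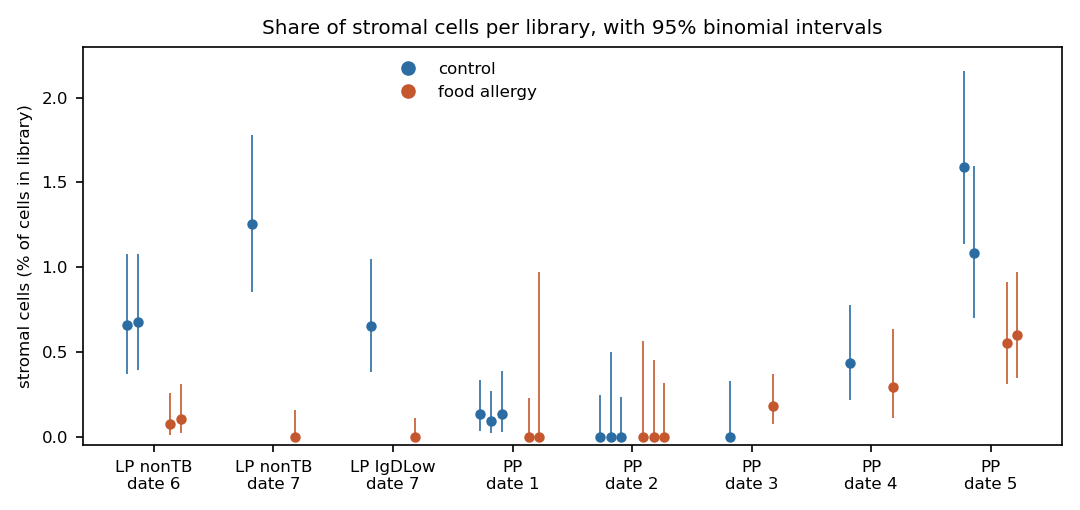
Stromal cells as a percentage of the cells in each library, by tissue, condition and title date, with exact 95% binomial intervals for counting error. The lamina propria control libraries lie at 0.654% to 1.26% and all 4 allergy libraries at or below 0.106%, while the Peyer's patch shares of date 5 stand above those of the other dates.

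Expression in control stromal cells was compared between the tissues. UMIs were summed over the stromal cells of each nonTB lamina propria library (15, 17 and 31 cells) and over those of each Peyer's patch title date with at least 10 of them (10 cells on date 1, 11 on date 4 and 65 on date 5). Lamina propria libraries 1 and 2 share title date 6, and library 3 is of date 7. Libraries of a date were kept apart in the lamina propria but summed in Peyer's patches. The lamina propria sums are thus not all of separate dates. Values for the lamina propria are given below in the order of libraries 1 to 3. Those for Peyer's patches are in the order of dates 1, 4 and 5. The edgeR quasi-likelihood test with Benjamini-Hochberg adjustment called 143 of 687 genes tested (20.8%), 72 higher in the lamina propria (10.5%) and 71 higher in Peyer's patches (10.3%). Without TMM scaling it called 175, of which 118 were higher in the lamina propria and 57 in Peyer's patches. All 4 rule genes are among those called higher in the lamina propria by both fits. As the rule used these 4 genes, their calls are no finding. The sums did not overlap for 276 genes (40.2%). Peyer's patch cells were high in lymphoid chemokines, contractile genes and immediate early genes. Lamina propria cells were high in collagens outside the rule, microfibril genes and Adamdec1. Tissue, sort and title date cannot be told apart in this comparison, since no date has both tissues. In sums over cells, fewer cells of a kind and less RNA per cell cannot be told apart either.

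Lymphoid stromal genes were mostly higher in Peyer's patches. Of the 21 list genes in the matrix, 9 were tested, 7 were higher in Peyer's patches and 0 were higher in the lamina propria, with a median log2 difference (lamina propria minus Peyer's patches) of -2.03 against -0.06 for all genes tested. Counts with DESeq2 and without TMM scaling were 6 each, and the latter had 1 list gene higher in the lamina propria. Ccl21a (ENSMUSG00000094686, chr4:42772860-42773993 on the minus strand of GRCm38) stood at 0, 0 and 0 CPM in the lamina propria sums and at 69301, 55456 and 58218 CPM in the Peyer's patch sums. No lamina propria stromal cell of either condition had a Ccl21a UMI, and 77 of the 130 Peyer's patch cells did. Against a floor of 3 counts over the lamina propria sums, Ccl21a was at least 5070.3-fold higher in Peyer's patches (edgeR adjusted p = 7.67e-08).

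Single Peyer's patch cells carried very large amounts of this transcript. Cells with a Ccl21a UMI had a median of 482, and the highest cell had 1846. The largest share of a cell's UMIs was 21.5%. Ccl21a took more than 10% of the UMIs in 41 cells. Mouse Ccl21 genes are near-identical copies, so the copy of origin is uncertain. The rows Gm21541 and Ccl21b.1 had 16 and 19 UMIs. Of the other cells, 0.0330% in the lamina propria and 3.56% in Peyer's patches had a Ccl21a UMI.

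Ccl19, the other CCR7 ligand, was at 0 in every lamina propria sum and at 1873, 862 and 2204 CPM in Peyer's patches, at least 177-fold higher (edgeR adjusted p = 0.000129). Of the 77 cells with Ccl21a, 66 also had Ccl19 and 65 had Clu, whereas 4 had Adamdec1. Clu encodes clusterin, an extracellular chaperone that follicular dendritic cells make in large amounts. It too was at 0 in the lamina propria sums, against 6630.5, 3424 and 6647 CPM, at least 546-fold higher (edgeR adjusted p = 2.37e-05). Mfge8, a secreted bridge protein for apoptotic cells, was at 333, 542 and 510.2 CPM in the lamina propria and 4383, 3548 and 5788 CPM in Peyer's patches. Its sums did not overlap, and its log2 difference was -3.58 ± 0.26 (SE, edgeR adjusted p = 3.34e-05).

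Cxcl12, the CXCR4 ligand, was present throughout, at 2155, 1683 and 1869 CPM against 2509.8, 3252 and 4011 CPM. The sums did not overlap and differed by -1.10 ± 0.24 in log2 (SE, edgeR adjusted p = 0.00786), a call that was lost without lamina propria control library 2 (adjusted p = 0.0864) or without date 5 (0.0666), and with no filter on low counts (0.545). The adhesion molecules Icam1 and Vcam1 were also called higher in Peyer's patches, at -2.03 and -1.46 in log2, although the sums of both overlapped. Icam1 lost its call without date 5 and without lamina propria library 1 or 3, and Vcam1 without date 5, without library 2 or 3, with DESeq2, without TMM scaling and with no filter on low counts.

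Cxcl13 was uneven. It stood at 25.7, 19.3 and 113 CPM in the lamina propria and at 74.9, 0 and 1063 CPM in Peyer's patches, so the groups overlapped, and it was too low in some sums to be tested. A UMI was seen in 8 lamina propria and 22 Peyer's patch cells, 12 of which also had Ccl19. Madcam1, the adhesion molecule of gut vessels and of stroma that organises lymphoid tissue, was seen in 23 Peyer's patch cells and no lamina propria cell, and Bst1 in 30 and none.

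The promoters of genes from this comparison are shown because NF-κB, a transcription factor of inflammatory and lymphoid stromal genes, has a known binding motif that can be searched by letter. The motif searched was GGGA, any base and TTTCC in a row, on both strands, in the 250 bases before the start of transcription, from RefSeq on GRCm38.p6. It was present in 117 of 32851 promoters (0.356%), in 2 of 655 promoters of the tested genes (0.305%, with 507 genes matched), in 2 of 67 promoters of genes higher in Peyer's patches (2.99%) and in 0 of 64 of genes higher in the lamina propria. The 2 promoters belong to Nfkbia, the NF-κB inhibitor that NF-κB itself induces, and B2m, the light chain of MHC class I. The neutrophil chemokine gene Cxcl1, too uneven to be tested and so outside the tested genes, also holds a match, and Ccl21a holds none. A second motif, the CArG box, was also searched. It was present in 482 of 32851 promoters (1.47%) and in 11 of 655 of the tested genes (1.68%). Of genes higher in Peyer's patches it was in 3 of 67 (4.48%), and of those higher in the lamina propria in 2 of 64 (3.13%). Capitals mark the match of the NF-κB motif. A match is a description of letters and says nothing of binding, and no match says only that these letters are not in this window.
Ccl21a, chr4:42773992-42774241, minus strand: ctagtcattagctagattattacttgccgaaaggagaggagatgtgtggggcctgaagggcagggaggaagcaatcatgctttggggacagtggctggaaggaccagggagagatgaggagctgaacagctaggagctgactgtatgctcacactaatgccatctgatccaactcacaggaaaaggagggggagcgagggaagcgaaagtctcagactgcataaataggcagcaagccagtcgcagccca
Nfkbia, chr12:55492648-55492897, minus strand: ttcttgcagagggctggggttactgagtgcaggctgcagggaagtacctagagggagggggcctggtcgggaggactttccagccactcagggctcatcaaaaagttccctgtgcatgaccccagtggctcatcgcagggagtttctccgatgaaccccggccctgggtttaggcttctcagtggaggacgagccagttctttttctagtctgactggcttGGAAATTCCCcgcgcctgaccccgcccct
B2m, chr2:122147437-122147686, plus strand: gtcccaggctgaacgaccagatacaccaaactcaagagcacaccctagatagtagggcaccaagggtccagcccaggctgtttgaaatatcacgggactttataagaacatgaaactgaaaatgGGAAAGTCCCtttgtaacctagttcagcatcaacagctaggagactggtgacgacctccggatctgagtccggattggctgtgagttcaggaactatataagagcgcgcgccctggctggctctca
Cxcl1, chr5:90890995-90891244, plus strand: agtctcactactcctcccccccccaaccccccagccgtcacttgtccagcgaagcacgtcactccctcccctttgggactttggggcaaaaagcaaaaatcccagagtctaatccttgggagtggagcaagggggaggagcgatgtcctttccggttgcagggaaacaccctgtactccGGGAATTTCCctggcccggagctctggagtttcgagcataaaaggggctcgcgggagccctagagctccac

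Of the 35 chemokine ligand genes in the matrix, 30 had a UMI in stromal cells, and Ccl17, Ccl20, Ccl28, Cxcl3 and Ppbp had none. Only 6 passed the filter on low counts. Ccl21a, Ccl19 and Cxcl12 were called higher in Peyer's patches, and Ccl11, Cxcl14 and Cxcl16 were not called.

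Several chemokines of inflammation were found mostly in Peyer's patch cells, but too unevenly across sums to be tested. Cxcl1, a neutrophil attractant, was at 0, 0 and 35.6 CPM in the lamina propria and 112, 1133 and 5512 CPM in Peyer's patches. The sums did not overlap, and over the summed UMIs the Peyer's patch level was 203 times the lamina propria level, with 6 lamina propria UMIs in all. Ccl2, the monocyte attractant and CCR2 ligand, was at 0, 38.7 and 41.5 CPM against 37.5, 1084 and 1303 CPM. Ccl7, another CCR2 ligand, was at 0, 0 and 0 CPM against 0, 689.8 and 1165 CPM. For both, dates 4 and 5 were high and date 1 lay at or below the highest lamina propria sum, so the groups overlapped.

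Cxcl10, the interferon-inducible CXCR3 ligand, was at 0, 19.3 and 11.9 CPM in the lamina propria and 37.5, 1848 and 961 CPM in Peyer's patches. Date 1 was far below dates 4 and 5, though above every lamina propria sum. Ccl11 encodes eotaxin, the CCR3 ligand that attracts eosinophils. It ran the other way, at 2129, 2147 and 2231 CPM in the lamina propria and 524, 862 and 1237 CPM in Peyer's patches. Its sums did not overlap, but the log2 difference of 0.92 ± 0.30 missed the threshold (SE, edgeR adjusted p = 0.0586). Cxcl14 and Cxcl16 overlapped between the tissues.

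**Figure D3:**
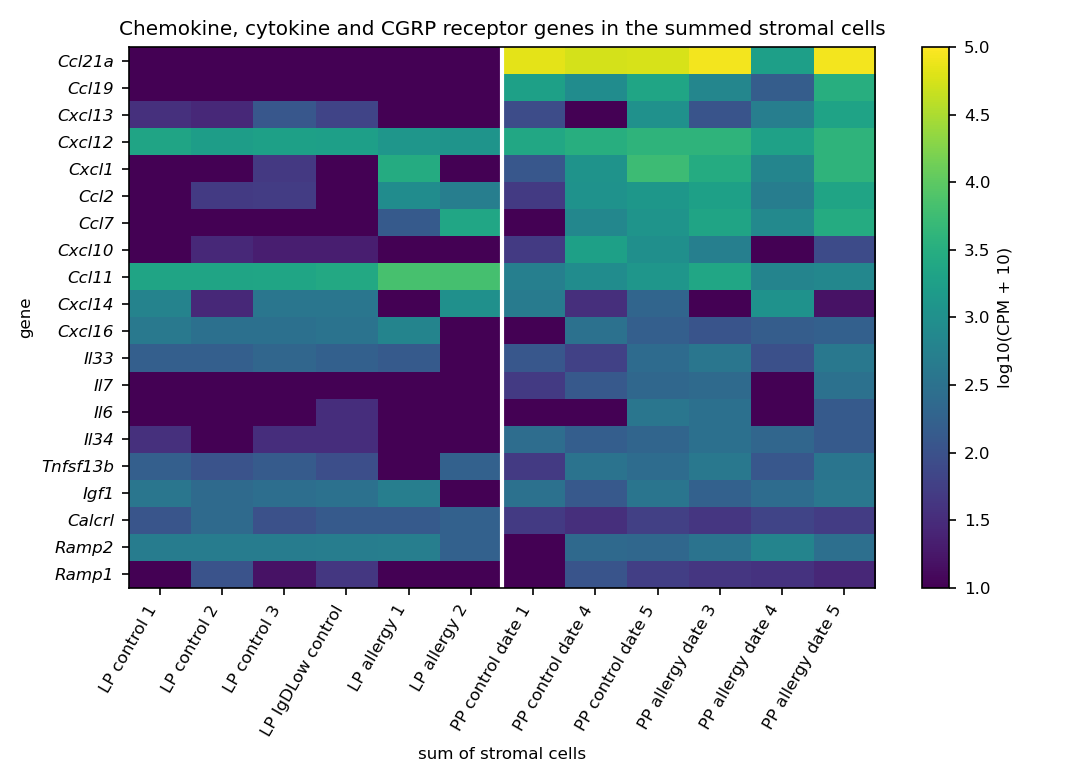
Level of chemokine, cytokine and CGRP receptor genes (rows) in each sum of stromal cells (columns), as log10 of CPM plus 10. Ccl21a, Ccl19 and Il7 are at 0 in every lamina propria control sum and present in all 3 Peyer's patch control sums, while Ccl11 is present in every sum of both tissues.

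Cytokine and growth factor transcripts were mostly sparse. Of 60 such genes in the matrix, 53 had a UMI, and Bdnf, Fgf18, Ifng, Il5, Il10, Il25 and Pdgfb had none. Cyr61, also known as Ccn1, a matrix-bound growth regulator, was the highest, at 1728 CPM over all stromal cells. It stood at 103, 96.7 and 386 CPM in the lamina propria and 1311, 985 and 2261 CPM in Peyer's patches, without overlap, and was the only 1 of the 3 tested genes called (log2 difference -3.06 ± 0.52, SE, edgeR adjusted p = 0.00208). Igf1, the insulin-like growth factor, was at 359, 232 and 273 CPM against 299.7, 123 and 351 CPM and overlapped.

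Il7, the survival factor of T cells and innate lymphoid cells, was at 0 in the lamina propria and at 37.5, 123 and 207 CPM in Peyer's patches. It was seen in 47 Peyer's patch cells and no lamina propria cell, at least 16.2-fold higher by the floor of 3 counts. It was too low to be tested. Il34, a ligand of the macrophage receptor CSF1R, was at 25.7, 0 and 23.7 CPM against 262, 148 and 189 CPM, without overlap. Il6 was seen in 1 lamina propria and 23 Peyer's patch cells, and its Peyer's patch control UMIs came from date 5 alone.

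Il33 and Tslp, alarmins that activate ILC2s (group 2 innate lymphoid cells), were present in both tissues, while Il25 had no UMI. Il33 was at 154, 155 and 196 CPM in the lamina propria and 112, 49.3 and 240.2 CPM in Peyer's patches. Its values overlapped, and 34 of 85 lamina propria and 55 of 130 Peyer's patch cells had a UMI, against 0.104% and 0.461% of the other cells. Tslp was seen in 24 cells at 30.1 CPM, and 14 cells had both. Tnfsf13b, which encodes the B cell survival factor BAFF, was seen in 97 cells at 154, 96.7 and 131 CPM against 37.5, 320.3 and 252 CPM, and the values overlapped.

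Factors that act on the epithelium differed by gene. Sfrp1, a secreted Wnt antagonist, was at 2796, 2631 and 1887 CPM in the lamina propria and 787, 616 and 369 CPM in Peyer's patches, without overlap (log2 difference 1.85 ± 0.32, SE, edgeR adjusted p = 0.00228). Grem1, the BMP antagonist of the crypt niche, was at 128, 77.4 and 166 CPM against 375, 641 and 811 CPM, again without overlap and in the other direction (-2.58 ± 0.37, SE, edgeR adjusted p = 0.000819). Bmp4 was the third gene of this list to be tested and was not called. Rspo3, a Wnt agonist of the crypt niche, had a UMI in 68 cells, and Grem1 was found with it in 8 lamina propria and 43 Peyer's patch cells.

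Cytokine and growth factor receptors were detected broadly but at low levels, with 55 of 59 genes having a UMI. The decoy receptors Ackr1, Ackr2 and Il22ra2 had none. Ifngr1, the ligand-binding chain of the interferon-γ receptor, was the highest at 323 CPM, and neither it nor the TNF receptor Tnfrsf1a was called between tissues. Tgfbr2, the TGF-β type II receptor, was at 308, 387 and 219.5 CPM in the lamina propria and 74.9, 49.3 and 60.04 CPM in Peyer's patches. These values did not overlap, and the log2 difference was 1.93 ± 0.36 (SE, edgeR adjusted p = 0.00376), a call lost without date 5 (adjusted p = 0.0720). Receptors of type 2 cytokines were sparse. Il4ra had a UMI in 44 cells at 52.2 CPM, Il13ra1 in 21 and Il13ra2 in 2. The IL-33 receptor Il1rl1 had a UMI in 2 cells.

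Osmr, the oncostatin M receptor, was at 51.3, 38.7 and 23.7 CPM in the lamina propria and 74.9, 123 and 144 CPM in Peyer's patches. Its partner chain Il6st was at 205, 96.7 and 65.3 CPM against 337, 197 and 243 CPM. Osmr did not overlap between the tissues and Il6st did. Lepr, the leptin receptor, was at 205, 251 and 101 CPM against 0, 0 and 57.04 CPM without overlap. None of these 3 passed the filter on low counts.

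Stromal cells with Calcrl more often had a UMI of Ramp2, the partner of the adrenomedullin receptor, than of Ramp1, the partner of the CGRP receptor. The same order held over all 215 stromal cells, with Ramp2 in 116 and Ramp1 in 23, so it is not particular to cells with Calcrl. Calcrl had a UMI in 28 of 85 lamina propria cells and 25 of 130 Peyer's patch cells. With every cell thinned to 2000 UMIs, which left out 36 shallower cells (19 of the lamina propria and 17 of Peyer's patches), the shares were 22.7% and 8.85%, against 0.987% and 2.44% of the other cells before thinning. Its level was 103, 232 and 89.00 CPM in the lamina propria and 37.5, 24.6 and 48.03 CPM in Peyer's patches, without overlap, and it was too low to be tested.

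Ramp2 was seen in 55 of 85 lamina propria cells and 61 of 130 Peyer's patch cells, or 57.6% and 31.9% after thinning, against 0.109% and 0.761% of the other cells. It stood at 462, 464 and 463 CPM in the lamina propria and 0, 222 and 210.1 CPM in Peyer's patches. The groups did not overlap, but the log2 difference of 1.04 ± 0.44 was not called (SE, edgeR adjusted p = 0.137). Without TMM scaling, which moved the median of all genes by 0.33 in log2 towards the lamina propria, it was called (adjusted p = 0.0393).

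Ramp1, which makes the CGRP receptor, was seen in 7 of 85 and 16 of 130 cells, against 16.6% and 32.6% of the other cells, which include the lymphocytes. Those shares were thus lower in stromal cells although they had more UMIs per cell, and at or below the shares in other cell types a UMI can be background. Group 7, led by smooth muscle genes, had the highest Ramp1 of the groups, at 321 CPM, from 9 UMIs in 3 of its 6 cells. Ramp3 was seen in 5 cells, against 13.1% and 10.8% of the other cells.

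Calcrl was found with Ramp2 in 37 cells (21 lamina propria and 16 Peyer's patch), with Ramp1 in 9 and with Ramp3 in 1, and 12 cells with Calcrl had no Ramp UMI. In the other cells the order differed, with Calcrl beside Ramp1 in 402 of 1103 Calcrl cells, beside Ramp3 in 129 and beside Ramp2 in 60. Of the ligands, Calca had a UMI in 2 stromal cells, Calcb and Iapp in none, Adm (adrenomedullin) in 15 and Adm2 in 13. Mme, a peptidase that degrades several peptides, was seen in 18 Peyer's patch cells and no lamina propria cell, at 187, 0 and 33.02 CPM, so that date 4 overlapped with the lamina propria at 0.

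**Figure D4:**
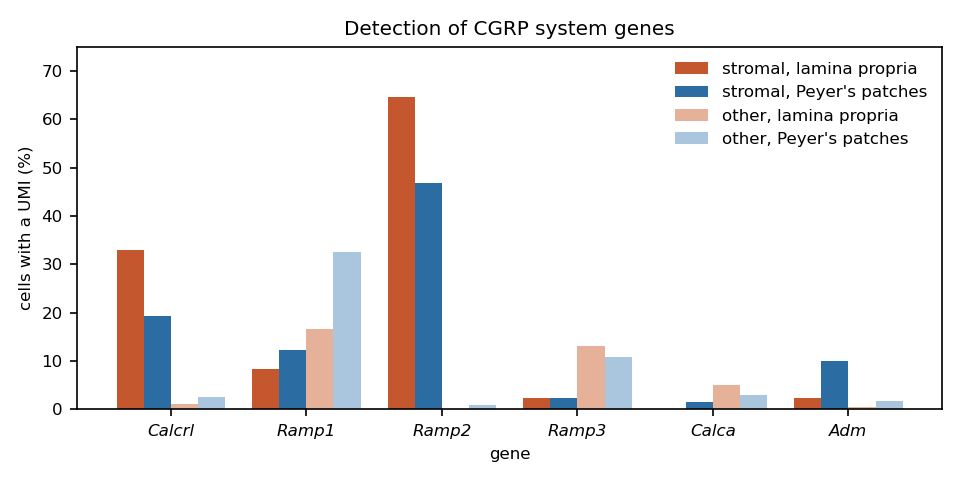
Percentage of cells with a UMI of each CGRP system gene in stromal cells and in the other cells, by tissue. Ramp2 is the most often detected of these genes in stromal cells, and Ramp1 is detected more often in the other cells (16.6% in the lamina propria and 32.6% in Peyer's patches) than in stromal cells.

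Other neuropeptide, transmitter and prostaglandin receptors were seen for 21 of 27 genes, and Adrb1, Chrm2, Htr2b, Htr4, Nmur1 and Vipr1 had no UMI. P2ry14, a receptor for UDP-sugars, was the highest and the only 1 tested, at 641, 832 and 445 CPM in the lamina propria and 74.9, 320.3 and 141 CPM in Peyer's patches without overlap (log2 difference 1.55 ± 0.43, SE, edgeR adjusted p = 0.0290). Its call was lost without date 1, without date 5 and without lamina propria library 1 or 2, and the adjusted p then reached up to 0.196. Npy1r, Tacr1 and Adra2a, receptors of neuropeptide Y, substance P and noradrenaline, were seen in 15, 11 and 12 Peyer's patch cells and in no lamina propria cell. Date 4 was at 0 for each of them, so the groups overlapped. Ptger4, a receptor for prostaglandin E2, was seen in 48 cells.

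Several matrix transcripts were higher in the lamina propria cells. The rule genes Col1a1, Col1a2, Col3a1 and Dcn were themselves higher there, but the rule used them, so they are given as a description. Dcn, for example, was at 14776, 17118 and 13088 CPM in the lamina propria and 8803, 4558 and 5212 CPM in Peyer's patches. Of the other fibrillar and microfibrillar collagens, 7 were tested, and 6 were higher in the lamina propria and 0 in Peyer's patches, with a median log2 difference of 1.40. DESeq2 called 4 of them. Col6a2, a chain of the beaded-filament collagen VI, was at 1642, 1354 and 1169 CPM in the lamina propria and 375, 172 and 426 CPM in Peyer's patches. Its values did not overlap (log2 difference 1.72 ± 0.33, SE, edgeR adjusted p = 0.00451). Col15a1, a collagen at the border of basement membranes, was at 641, 348 and 314 CPM against 0, 24.6 and 66.04 CPM and differed by 2.59 ± 0.49 (SE, edgeR adjusted p = 0.00397).

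Among 20 proteoglycan and matrix glycoprotein genes tested, 5 were higher in the lamina propria (Fbln1, Fbln5, Fbn1, Efemp1 and Mfap5) and 0 in Peyer's patches. Without TMM scaling the count was 11. These 5 genes encode fibulins and microfibril proteins of elastic fibres. Mfap5 was at 282, 367 and 273 CPM in the lamina propria and 74.9, 0 and 0 CPM in Peyer's patches, where dates 4 and 5 were at 0. Its log2 difference was 5.28 ± 0.81 (SE, edgeR adjusted p = 0.00126), and with DESeq2 the adjusted p was 0.1001. Lum, Bgn and Sparc did not overlap between the tissues and were higher in each lamina propria sum, but none was called. Mmp2, a gelatinase, and Serping1, the C1 inhibitor, were the 2 of 5 matrix remodelling genes called higher in the lamina propria. Of 3 basement membrane genes tested, the laminin chain Lamb1 was called higher in the lamina propria, at 2.02 ± 0.34 in log2 (SE, edgeR adjusted p = 0.00228). The collagen IV chains Col4a1 and Col4a2 lay on the Peyer's patch side, at -0.80 and -0.83, and were not called (edgeR adjusted p = 0.0697 and 0.0684), so the median of the list was -0.80.

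Fibroblast identity genes were called higher in the lamina propria for 4 of 9 tested (Cd34, Ly6a, Gsn and Clec3b) and in Peyer's patches for 0. Cd34, a surface sialomucin of progenitors and interstitial fibroblasts, was at 385, 967 and 433 CPM in the lamina propria and 74.9, 24.6 and 21.01 CPM in Peyer's patches. The values did not overlap, and the difference was 4.12 ± 0.57 in log2 (SE, edgeR adjusted p = 0.000709). Gsn, the actin-severing protein gelsolin, was at 13339.5, 16615 and 13664 CPM against 2735, 1454 and 1993 CPM (2.55 ± 0.20, SE, edgeR adjusted p = 3.84e-05). Pdpn (podoplanin) and Pdgfra were too low to be tested, Pdpn at 282, 232 and 208 CPM against 74.9, 98.5 and 144 CPM and Pdgfra at 308, 96.7 and 142 CPM against 337, 98.5 and 120.1 CPM. Pdpn was higher in each lamina propria sum and Pdgfra overlapped.

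By adjusted p the 10 leading genes of the lamina propria were the rule gene Col3a1, which is no finding, and Gsn, Adamdec1, Clec3b, Itm2a, Dpep1, Htra3, Anxa2, Ifi27l2a and Cd34. Adamdec1, a secreted metalloproteinase-like protein of the gut mucosa, was at 10236, 8646 and 7909 CPM in the lamina propria and 824, 1429 and 1201 CPM in Peyer's patches. The sums did not overlap, and the log2 difference was 2.62 ± 0.25 (SE, edgeR adjusted p = 0.000126). A UMI was seen in 81 of 85 lamina propria cells and 33 of 130 Peyer's patch cells. Htra3, a secreted serine protease, was at 2668, 2592 and 1495 CPM against 299.7, 98.5 and 168 CPM, and Itm2a, a membrane protein, at 231, 232 and 273 CPM against 0, 0 and 12.01 CPM. Both were higher in each lamina propria sum, by 3.37 ± 0.38 and 4.24 ± 0.46 in log2 (SE, edgeR adjusted p = 0.000224 and 0.000169).

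The 10 leading genes of Peyer's patches were Ccl21a, Clu, Mfge8, Jun, Ier2, Klf6, Des, Ccl19, Fos and Tpm2. All 7 smooth muscle and pericyte genes tested were higher in Peyer's patches, with a median of -3.10 (DESeq2 and the fit without TMM scaling called 6). Des, which encodes the muscle intermediate filament desmin and is also found in lymphoid fibroblasts, was at 25.7, 0 and 23.7 CPM in the lamina propria and 674, 320.3 and 552 CPM in Peyer's patches. It differed by -4.97 ± 0.48 (SE, edgeR adjusted p = 0.000126) and had a UMI in 93 of 130 Peyer's patch cells, more than the 33 cells of groups 3 and 7 hold. Tagln, a smooth muscle actin-binding protein, was at 76.96, 0 and 11.9 CPM against 1611, 492.7 and 1237 CPM. Acta2, smooth muscle actin, was at 205, 38.7 and 94.9 CPM against 2435, 567 and 1282 CPM. Neither overlapped, and both were called (log2 differences -5.97 ± 0.68 and -3.98 ± 0.58, SE, edgeR adjusted p = 0.000224 and 0.000916).

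Immediate early genes, which are induced within minutes by growth factors, stress or tissue dissociation, were higher in Peyer's patches for 17 of 18 tested, with a median of -4.32. DESeq2 and the fit without TMM scaling also called 17. Fos was at 76.96, 96.7 and 415 CPM in the lamina propria and 4757, 8302 and 7439 CPM in Peyer's patches, without overlap (log2 difference -5.13 ± 0.52, SE, edgeR adjusted p = 0.000130). Jun was at 231, 135 and 166 CPM against 2472, 4409.8 and 4887 CPM and differed by -4.83 ± 0.37 (SE, edgeR adjusted p = 3.78e-05). Nfkbia was at 179.6, 174 and 166 CPM against 562, 1872 and 1747 CPM (-3.38 ± 0.48, SE, edgeR adjusted p = 0.000819).

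In the other cells of the same libraries the tissues did not separate in this way. Their Fos was 1194 to 2342 CPM in the lamina propria control libraries and 384 to 2471 CPM in the Peyer's patch control sums, and the summed list was 10282 to 14548 CPM and 5298 to 21887 CPM. In stromal cells the summed list was 3078 to 3733 CPM in the lamina propria and 21652 to 48902 CPM in Peyer's patches. Whether dissociation or sorting plays a part in this difference was not tested.

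Heat shock genes were higher in Peyer's patches for 4 of 5 tested. Hspa1a, an inducible chaperone, was at 0, 0 and 59.3 CPM in the lamina propria and 3858, 739 and 1063 CPM in Peyer's patches (-5.90 ± 0.84, SE, edgeR adjusted p = 0.000819). In the other cells the same gene was at 8.17 to 20.6 CPM and 39.9 to 842 CPM.

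Complement and lipid genes differed in single members. C3, the central complement component, was at 205, 251 and 267 CPM in the lamina propria and 1124, 764 and 2753 CPM in Peyer's patches, and the log2 difference was -3.003 ± 0.47 (SE, edgeR adjusted p = 0.00142). Of the 5 complement genes tested, Serping1 was called in the other direction, at 0.76 in log2, and C4b, C1s1 and C1ra were not called. Apoe, the lipid carrier, was at 1077, 522 and 991 CPM against 2210.2, 4779 and 7268 CPM and was called higher in Peyer's patches (-2.80 ± 0.45, SE, edgeR adjusted p = 0.00146). Aldh1a2, which makes retinoic acid, was seen in 48 lamina propria and 18 Peyer's patch cells, at 231, 193 and 231 CPM against 187, 49.3 and 42.03 CPM without overlap, and was too low to be tested.

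Of the 4 interferon response genes of the list that were tested, Ifitm1 was called higher in Peyer's patches and the others were not called. Ifi27l2a, an interferon-inducible gene outside the list, was called higher in the lamina propria (1.61 ± 0.22, SE, edgeR adjusted p = 0.000643). Of 5 antigen presentation genes, B2m was called higher in Peyer's patches at -0.81 in log2, with overlapping sums, and neither DESeq2 nor the fit without TMM scaling called it. Of 10 genes that follow RNA quality, mt-Nd1 was called higher in Peyer's patches and the other fits called none.

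Transcripts of plasma cells were present in the lamina propria stromal cells. Jchain, Igkc and Igha, the 3 plasma cell genes tested, were all called higher in the lamina propria, with a median of 3.45. The 8 genes of the list, all with a UMI in stromal cells, summed to 4207 to 13884 CPM in the lamina propria sums and 558 to 1256 CPM in the Peyer's patch sums. In the other cells they summed to 286794 to 361249 CPM and 10938 to 14742 CPM. Igkc had a UMI in 85 of 85 lamina propria stromal cells and in 98.8% of the other lamina propria cells. The part of free RNA in these counts was not tested. Leaving out the immunoglobulin genes gave 140 calls of 684 genes.

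**Figure D5:**
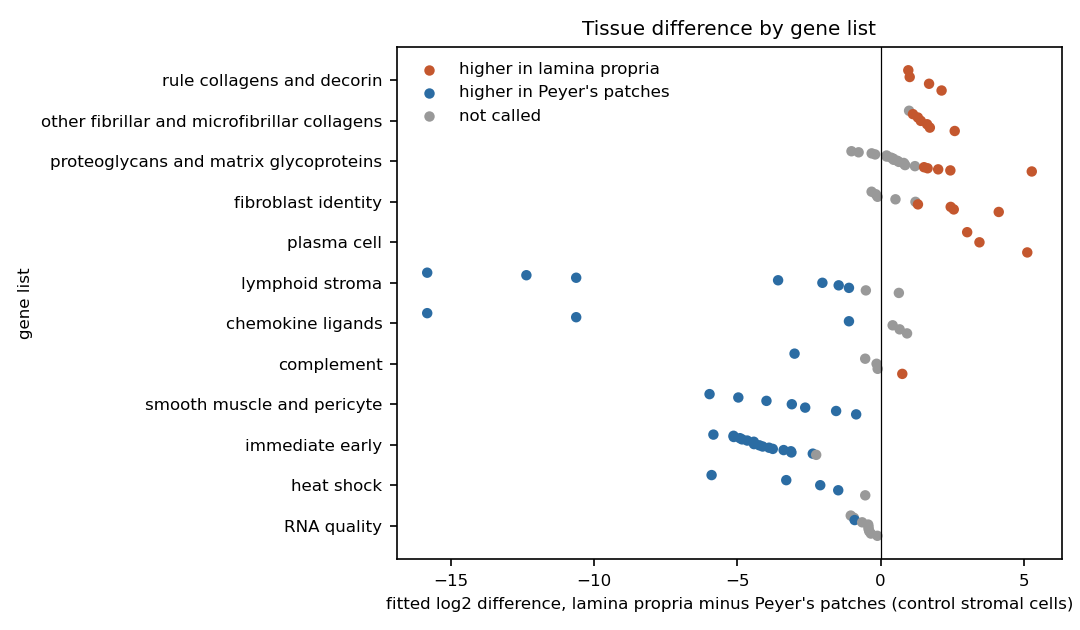
Fitted log2 difference (lamina propria minus Peyer's patches, horizontal axis) of each tested gene in control stromal cells, by gene list, with called genes marked. The 17 called immediate early genes and all 7 smooth muscle and pericyte genes lie on the Peyer's patch side, and the 6 called collagens on the lamina propria side.

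Allergy was compared with control in the Peyer's patch stromal cells over sums per title date and condition. With at least 10 cells per sum too few dates held both conditions, so the minimum was set to 5 cells. Dates 4 and 5 held both conditions (11 against 6 cells and 65 against 31), date 1 held control cells and date 3 allergy cells only, and the fit with title date as a term had 1 residual degree of freedom. The edgeR quasi-likelihood test with Benjamini-Hochberg adjustment called 0 of 514 genes (0%), and DESeq2 called 1. With the library as the unit, over libraries with at least 10 stromal cells, 1 of 1474 genes was called (0.0678%), Rgs4 at -3.88 in log2. Both allergy libraries of that fit were of date 5. Rgs4 was at 1225 CPM in group 3 and 11.1 CPM outside it, and group 3 held 24 control and 3 allergy cells. At an unadjusted p below 0.05, edgeR gave 17 genes, 6 higher and 11 lower in allergy. In a fit this small, a gene that was not called is not shown to be alike in both conditions.

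Cxcl10 was the gene with the smallest p. It was at 37.5, 1848 and 961 CPM in control on dates 1, 4 and 5 and at 523, 0 and 70.8 CPM in allergy on dates 3, 4 and 5. On both dates with both conditions, allergy was lower. The log2 difference, allergy minus control, was -4.43 ± 0.702 (SE), and its edgeR adjusted p was 0.583. DESeq2 called it (-5.01, adjusted p = 0.00263). Cxcl10 was highest in group 3, at 2353 CPM, and that group held 24 control and 3 allergy cells. The part of this imbalance in the difference was not tested.

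Ccl21a was at 86364, 1773 and 84528 CPM in the allergy sums, against 69301, 55456 and 58218 CPM in control. The 6 allergy cells of date 4 were far below the rest, and the lymphoid stroma list summed to 13989 CPM there, against 68587 to 115513 CPM in the other 5 Peyer's patch sums. The fitted log2 difference of -2.15 ± 1.90 (SE) therefore rests on this sum. With the library as the unit, a fit without these 6 cells, the direction was the opposite. Cyr61 was at 1307, 4053 and 3246 CPM in allergy and 1311, 985 and 2261 CPM in control, and Cxcl1 at 2876, 647 and 4013 CPM and 112, 1133 and 5512 CPM, and neither was called. None of the 10 chemokine genes, the 11 lymphoid stroma genes or the 21 immediate early genes tested was called.

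In the lamina propria only 5 stromal cells came from allergy mice, 2 from library 1 and 3 from library 2, with 14032 UMIs in all, so no test was made. The values of these cells are set beside the control sum of 259229 UMIs with 95% Poisson intervals, which cover counting error only. Ccl11 was at 6729.8 and 6658 CPM in the allergy libraries, above the 2129, 2147 and 2231 CPM of the control libraries. Over the sums this was 6699 CPM (5413 to 8198) against 2199 CPM (2022 to 2387), and 4 of the 5 cells had a UMI, with 41 of the 94 UMIs in 1 cell. Of the 5 cells, 2 were in group 4, where Ccl11 was at 2968 CPM, against 3 of all lamina propria control cells, and the part of this in the values was not tested. Cyr61 was at 2991 and 1664 CPM, above the 103, 96.7 and 386 CPM of control, and was seen in all 5 cells.

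Monocyte attractants also had more UMIs in these few cells. Ccl2 was at 872 and 499 CPM, against 0, 38.7 and 41.5 CPM in control, and Ccl7 was at 125 and 2330.2 CPM against 0, 0 and 0 CPM. Over the sums Ccl7 was at 1069 CPM (598 to 1763) in allergy, with 15 UMIs in 3 cells, and at 0 UMIs in control, which allows up to 14.2 CPM. A single cell held 7 of the 10 Ccl2 UMIs, and a single cell 10 of the 15 Ccl7 UMIs. The other cells of the same libraries had more of both in allergy as well. Their Ccl2 was 133 to 162 CPM in allergy and 4.39 to 8.80 CPM in control, and their Ccl7 was 48.1 to 83.8 CPM and 0.144 to 2.59 CPM. The part of free RNA or of RNA from other cells in the stromal values was not tested.

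Cxcl1 was at 2866 and 0 CPM in the allergy libraries, with 18 of its 23 UMIs in 1 cell. The immediate early list summed to 28664 and 8322 CPM in the allergy libraries, above the 3078 to 3733 CPM of control, and Egr1 had 15 of its 17 UMIs in 1 cell. In the same cells Calcrl was at 143 CPM (17.3 to 515) against 120 CPM (81.3 to 170). Ramp1 had 0 UMIs, which allows up to 263 CPM, so a Ramp1 level like that of control was below what these cells could show.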

How the data were processed

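Single cells of Peyer's patch and lamina propria were profiled from the 3′ end in droplets. The authors deposited 1 matrix of raw UMI counts over 19221 genes for 27 libraries, and per the submitters' processing notes the tools were bcl2fastq, Bowtie2, RSEM and Cell Ranger on mm10, with no versions and no role for each. How cells were filtered before deposit was not stated. The lowest cell had 501 UMIs. The 13 bulk samples were not used here.

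Each cell was taken from its library by the barcode label in the matrix and each group from the sample labels. No per-sample columns were left unmapped. The members and all gene lists were chosen with earlier results of these data known, so none of them is independent of those results. The genes named were those of the lists with a UMI in stromal cells, the 25 with the largest log2 ratio to the other cells among genes in at least 10% of stromal cells, and the 10 with the smallest adjusted p in each direction. Doublets were called per library and kept: 1170 cells (2.01%) were called.

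UMIs of stromal cells were summed per lamina propria library and, in Peyer's patches, per title date and condition. edgeR 4.0.16 (R 4.3.3) was used with TMM scaling, filterByExpr and the quasi-likelihood test, at a Benjamini-Hochberg adjusted p of 0.05 over all genes tested. It was tested on simulated data with known changes. Every simulated gene had the same dispersion, so that run does not measure error rates in these sums. The alternative was DESeq2 1.42.0. Shares were compared by exact permutation within title date and title position letter, with scipy 1.17.1. Cells were clustered with scanpy 1.11.5 and leidenalg 0.10.2. Gene positions are from GENCODE on GRCm38. Fits without TMM scaling, with the IgDLow control library and without immunoglobulin genes were added after the data were seen.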

Additional observations from a re-analysis of the deposited data

How the results depend on the processing

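Between the tissues, the 143 calls, which include the 4 rule genes, became 289 with no filter on low counts. With at least 10 UMIs of the rule genes they became 380 of 2713 genes. That fit took only sums with at least 10 such cells. Control dates 1 and 4 held 10 and 11 stromal cells before the stricter rule, so it may rest on fewer Peyer's patch sums. The other alternatives gave 115 with DESeq2, 175 without TMM scaling or with the IgDLow control library, 140 without immunoglobulin genes, and 107 to 192 when each sum was left out. Without lamina propria control library 2, 89 of the 143 were called again, and 92 without Peyer's patch date 5. No gene of the 143 changed sign in any alternative. For allergy against control in Peyer's patches, where the main count was 0, DESeq2 gave 1 (Cxcl10), the library as the unit 1 of 1474 genes (0.0678%, Rgs4 at -3.88), cells with no endothelial UMI 3 (Cyr61 at 1.30, Art3 at -4.63 and Cxcl10 at -4.18), and no filter on low counts 20. Ccl21a was reversed with the library as the unit, at 0.60 against -2.15. That fit took libraries with at least 10 stromal cells, so it left out the 6 allergy cells of date 4, with Ccl21a at 1773 CPM. With no replicate block for title date the count was 0, and leaving out the date 1 or date 3 sum also gave 0. Sums of at least 20 cells, and leaving out a sum of date 4 or 5, could not be fitted. The difference in share was -0.0313 to -0.224 percentage points in Peyer's patches with each date left out, with no change of call. It was -0.607 to -0.907 in the lamina propria with each library left out, where the few arrangements allowed no call. Depth limits low genes such as Calcrl and Ramp1 most.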

Other observations

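Chemokines and cytokines were spread unevenly over the 7 expression groups of stromal cells. The groups were defined on the same cells, so these values are descriptions. Il33 was at 420 CPM in group 1, the Clu and Ccl19 group of Peyer's patches, at 232 CPM in the mostly lamina propria group 2, and at most at 76.3 CPM in the other groups. Il7 was at 336 CPM in group 1 and at most at 21.5 CPM elsewhere. Ccl11 was lowest in group 6, led by myeloid genes, at 290 CPM, followed by group 1 at 516 CPM, and stood at 1570.5 to 3418 CPM in the other groups. Ccl21a was at 44771 CPM in group 3, which also had Rgs5, Notch3 and Kcnj8, and at 7.6 CPM or below outside groups 1 and 3. In group 3 a Ccl21a UMI was seen in 12 of the 27 cells, and Rgs5 in all 27.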
